A study of Homo sapiens with 3 samples.

Results

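The genes described here encode the proteins of the cytosolic ribosome. They were chosen by symbol from the platform annotation: large subunit genes of the RPL and RPLP series and small subunit genes of the RPS series, without the RPS6K kinases and without pseudogenes. The choice gave 66 genes, 41 of the large subunit and 25 of the small subunit, of 18639 genes named on the array, and 78 probes of 24460 gene probes. 1 further symbol match, RPS10L, was left out because it is annotated as the pseudogene RPS10P5. RPLP0, RPSA and RPS27A are not analysed here.

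The arrays came from HT29, an established human colorectal cancer cell line, and the study set out to find genes whose expression differs between cells given a linderapyrone derivative and cells given DMSO. There were 3 groups: cells with DMSO, the solvent control, cells with the derivative at 5 µM and cells with the derivative at 20 µM, each for 24 h in low-glucose medium with serum. The sample titles write the doses in mM, whereas the treatment labels and descriptions write µM, which was used. Total RNA was amplified, labelled with Cy5 and hybridised to 1-colour Toray oligonucleotide arrays. Each group had 1 array, so no difference below has a replicate check, no test was possible, and differences between cultures cannot be told apart from differences between treatments. The RNA was measured in bulk, so fewer cells and less RNA per cell cannot be told apart either.

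A cytosolic ribosome joins a small subunit, which reads the mRNA, to a large subunit, which forms the peptide bonds. Its proteins are made in matched amounts from many unlinked genes, and their mRNAs are among the most abundant in dividing cells. Most of these mRNAs begin with a short run of pyrimidines, the 5′ terminal oligopyrimidine (TOP) tract, through which mTOR signalling controls their translation. The array measures RNA level and not translation. Ribosomal protein genes also have many processed pseudogenes of nearly the same sequence, so a probe may bind more than the named transcript, and every level below carries that uncertainty.

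The start sites show the sequence feature that the members share and that the choice by symbol did not use. The windows below hold 15 bases before and 15 bases from the annotated start, 5′ to 3′, from RefSeq on GRCh38.p14, with the tract in capitals. A tract was counted where the first base of the transcript was C and at least 4 bases after it were each C or T, on the transcript strand only and with no other motif searched. The first 6 genes hold a tract and the last 2 do not. They are shown because RPL36, RPS24, RPL14, RPL22, RPS26 and RPL6 had the highest or lowest ratio of their subunit in a comparison below, and RPLP1 and RPS6 are a stalk protein and the target of the S6 kinases.
RPL36: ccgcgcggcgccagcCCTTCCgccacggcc
RPS24: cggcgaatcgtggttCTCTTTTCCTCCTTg
RPL14: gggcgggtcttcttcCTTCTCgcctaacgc
RPL22: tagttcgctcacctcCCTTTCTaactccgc
RPLP1: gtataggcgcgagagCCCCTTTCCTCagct
RPS6: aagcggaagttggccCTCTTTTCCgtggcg
RPS26: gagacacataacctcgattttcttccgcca
RPL6: ggggagacggcgcgtgcactgtgttcctgg

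These windows lie at chr19:5690280-5690309 (plus strand) for RPL36, chr10:78033848-78033877 (plus) for RPS24, chr3:40457324-40457353 (plus) for RPL14 and chr1:6199581-6199610 (minus) for RPL22. Those of RPLP1, RPS6 and RPS26 lie at chr15:69452803-69452832 (plus), chr9:19380222-19380251 (minus) and chr12:56041903-56041932 (plus). RPL6 has 2 annotated starts, and the window shown is at chr12:112409271-112409300 (minus). A tract stood at an annotated start of 39 of the 55 members with an entry, or 70.9%, against 988 of 15842 protein-coding genes, or 6.24%. A match describes the letters at an annotated start and does not show that transcription starts there in HT29. A missing match likewise holds for the annotated start only.

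The ribosomal protein probes were among the brightest on each array. All 78 exceeded the detection threshold on all 3 arrays, the threshold being the trimmed mean plus 2 SD of the blank and negative spots. Of the 100 brightest gene probes, 39 were members with DMSO, 40 at 5 µM and 43 at 20 µM, although members were 0.319% of the gene probes. They held 12.8%, 12.9% and 13.3% of the signal above the threshold on the same arrays in dose order. Spot brightness also depends on the probe, so these shares describe the array signal and do not rank transcripts by amount.

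The spot medians spanned nearly the whole range of the scanner signal. With 1 probe per gene, the median over the 66 members was 15111 with DMSO, 11985 at 5 µM and 14204 at 20 µM. RPLP1, an acidic protein of the stalk that recruits translation factors, had 46907 with DMSO, 35112 at 5 µM and 41725 at 20 µM, and RPS16 reached 43015 at 20 µM. No member came near the 60000 set as a limit for bright spots. At the other end, 5 genes stayed under 2 times the threshold on every array: RPL27A, RPL39L, RPL3L, RPS19 and RPS20. RPL39L, a paralog of RPL39 known from testis, read 84.1, 79.9 and 82.4 against thresholds of 82.5, 79.4 and 80.2 in dose order, so it lay at the threshold on all 3 arrays.

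**Figure D1:**
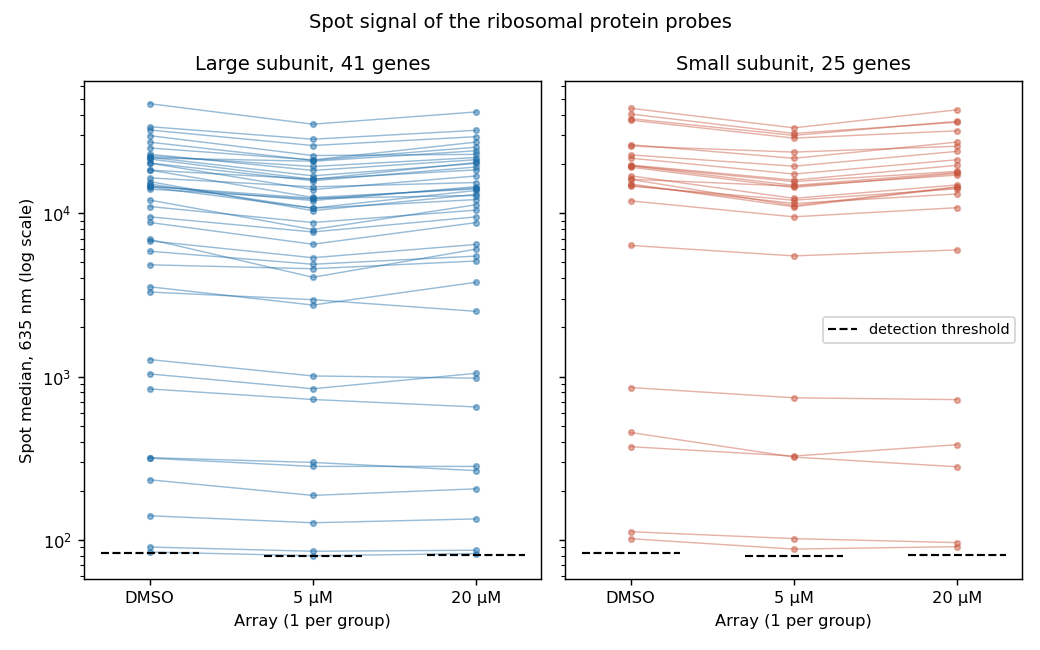
Spot median (scanner units, log axis) of the probe that stands for each ribosomal protein gene, with 1 line per gene across the DMSO, 5 µM and 20 µM arrays, large subunit at left and small subunit at right, and the detection threshold of each array as a dashed line. The medians over the 66 genes are 15111, 11985 and 14204, and before normalization the 5 µM point lies below the DMSO point for all 66 genes.

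Before normalization the 5 µM array was dimmer for every member. The raw spot median was lower at 5 µM than with DMSO for 66 of 66 genes, and the median log2 ratio over the 78 member probes was -0.32. The other bright genes had a median of -0.37 in the same comparison. These are the 177 genes outside the set whose mean level was at or above the members' lowest quartile, 28 of them annotated as ribosomal protein pseudogenes. At 20 µM the raw signal was lower than with DMSO for 55 members and higher for 11. The median over the 78 member probes was -0.11, against -0.20 for the other bright genes. The dimming at 5 µM thus appeared in bright probes inside and outside the set, and its part in the values was not tested beyond the other normalizations given below.

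After normexp background correction and quantile normalization, the middle of the set lay near 0 in all 3 comparisons. The median log2 ratio of the 66 members was 0.028 at 20 µM against DMSO, 0.0072 at 5 µM against DMSO and 0.025 at 20 µM against 5 µM. The medians over all genes detected on both arrays of a comparison were 0.0071, 0.0043 and -0.0011 in the same order. Large and small subunit genes had medians of 0.024 and 0.036 at 20 µM, and of 0.012 and 0.0024 at 5 µM. The 2 comparisons with DMSO share that array, so each is given with its own values only.

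The individual members also stayed close together. At 20 µM against DMSO the members' log2 ratios had an SD of 0.15 and ran between -0.57 for RPS26 and 0.30 for RPL36, with the middle 50% between -0.076 and 0.12. A gene was counted as set apart where its log2 ratio was 0.32 or more in size, that is a level of 5 to 4 or wider. None of the members was that far above DMSO, against 5.85% of all 16062 genes measured. RPS26 and RPL6, 2 members, were that far below DMSO, against 7.32% of all genes. With the main quantile normalization, at an offset of 50, no member was 1.5-fold apart, against 1.94% of all genes on the high side and 1.84% on the low side. With the offset of 16, also quantile normalized, RPS26 was past 1.5-fold at -0.64. No member was 2-fold apart, against 0.442% and 0.324%.

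At 5 µM against DMSO the SD was 0.13, between -0.41 for RPL14 and 0.29 for RPL36. None of the members was 0.32 or more above DMSO, where 1.82% of 16075 genes were, and RPL14 alone was as far below it, where 1.87% were. At 20 µM against 5 µM the SD was 0.15. RPL14 was 0.32 or more above the 5 µM level, where 3.98% of 16036 genes were, and RPL22 and RPS26 were as far below it, where 3.99% were. With the main quantile normalization no member was 1.5-fold apart in either comparison. Of all genes, 0.386% were that far above and 0.0871% below at 5 µM against DMSO, and 0.917% and 0.886% at 20 µM against 5 µM. No member was 2-fold apart either, against 0.0498% and 0.00622% at 5 µM against DMSO and 0.131% and 0.0935% at 20 µM against 5 µM. In all, 62 of 66 genes stayed under 0.32 in size in all 3 comparisons under this normalization. That number was 53 when the arrays were scaled to a common median instead, which leaves the dimmer bright probes of the 5 µM array as they are.

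**Figure D2:**
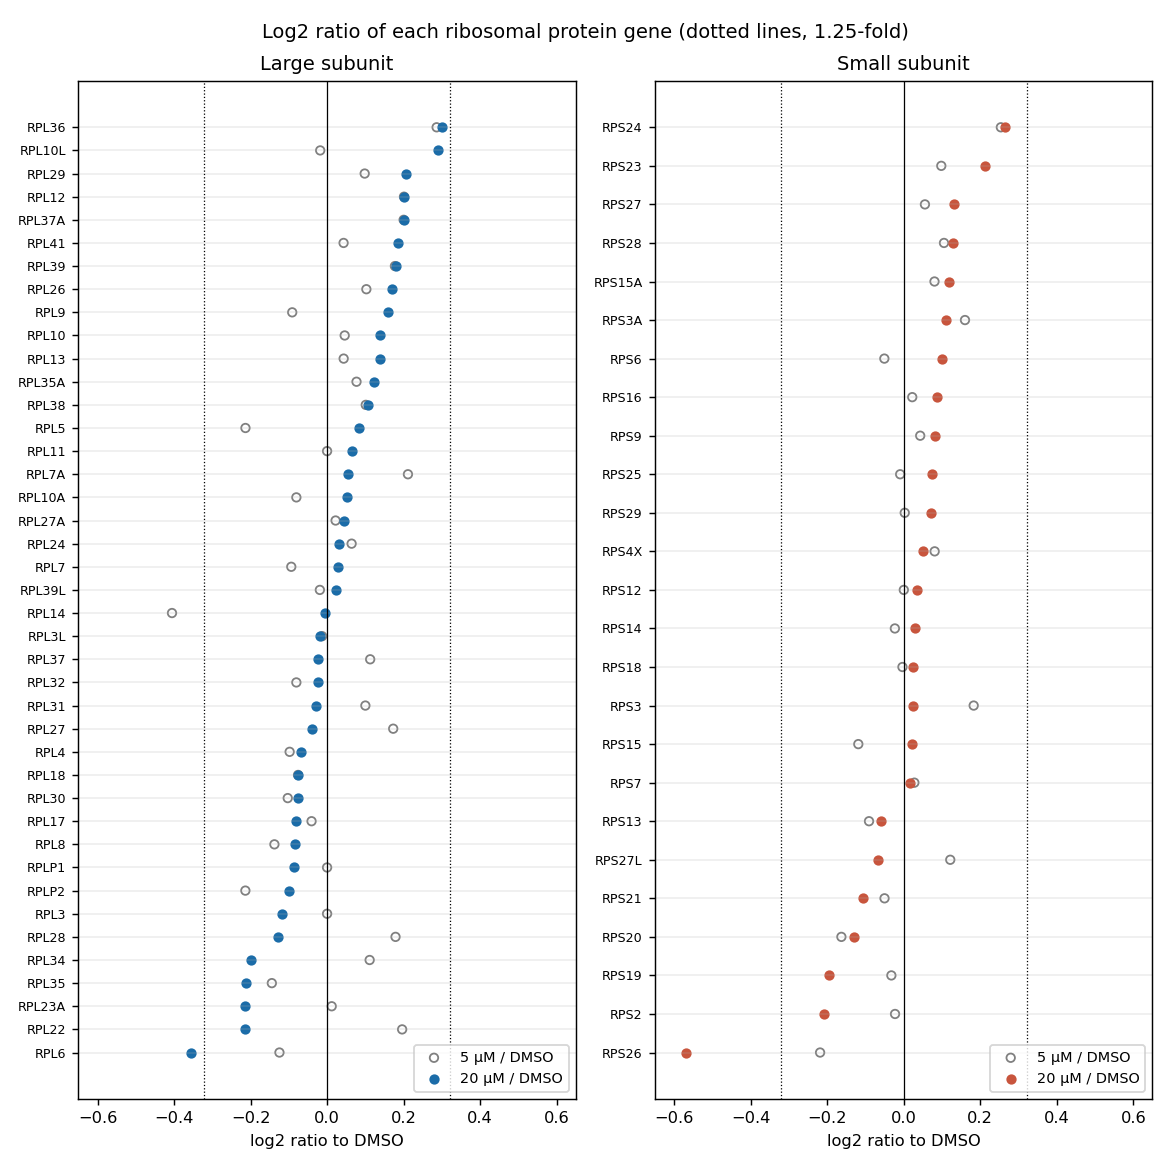
Log2 ratio of each ribosomal protein gene to DMSO, at 5 µM (open points) and at 20 µM (filled points), sorted by the value at 20 µM, for the large subunit at left and the small subunit at right; dotted lines mark 0.32 either way, a level of 5 to 4. Only RPL6 and RPS26 at 20 µM and RPL14 at 5 µM cross a dotted line.

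Bright probes outside the set were more spread, apart from those of ribosomal protein pseudogenes, whose spread was near that of the members. Among the other bright genes the SD of the log2 ratio was 0.38 at 20 µM against DMSO, 0.21 at 5 µM against DMSO and 0.27 at 20 µM against 5 µM. Of the members, 97.0%, 98.5% and 95.5% stayed under 0.32 in size in these 3 comparisons, against 69.5%, 92.7% and 79.1% of the other bright genes. Over all genes, which include many dim probes, the SDs were 0.25, 0.14 and 0.18. The 28 bright pseudogenes alone had an SD of 0.12 at 20 µM against DMSO with 0 of 28 at 0.32 or more in size, and without them the other 149 bright genes had an SD of 0.41. At 5 µM against DMSO the 28 had an SD of 0.14, where the members had 0.13. At 20 µM against 5 µM they had 0.14, where the members had 0.15. These numbers describe 3 arrays and carry no test of a difference between the sets.

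**Figure D3:**
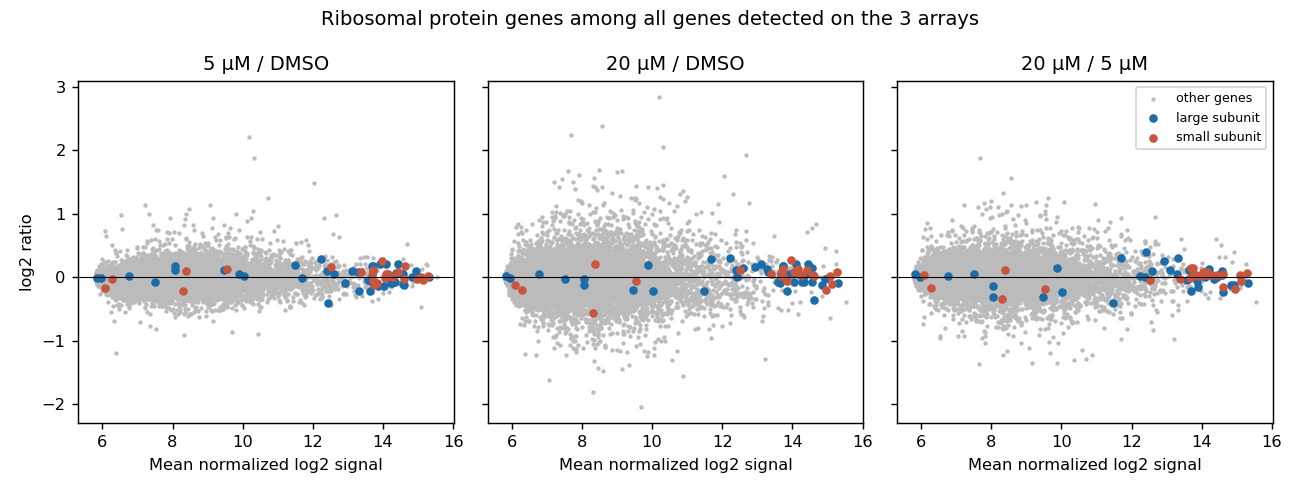
Log2 ratio (vertical axis) against mean normalized log2 signal (horizontal axis) for all genes detected on the 3 arrays, in grey, with large subunit genes in blue and small subunit genes in red, for 5 µM over DMSO, 20 µM over DMSO and 20 µM over 5 µM. The ribosomal protein genes gather at high signal and close to 0, with RPS26 the lowest red point at 20 µM over DMSO.

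The lowest members at 20 µM were led by RPS26, whose protein lies at the mRNA exit channel of the small subunit. Its spot median was 454 with DMSO, 321 at 5 µM and 280.1 at 20 µM, and its normalized log2 ratio to DMSO was -0.57 at 20 µM (1.48-fold lower) and -0.22 at 5 µM. The 3 arrays thus stood in dose order, with the 20 µM array lowest. RPS26 had 1 probe, dim for this set. Its ratio at 20 µM was past 1.5-fold with the offset of 16 (-0.64), under median scaling (-0.67) and from the authors' deposited values (-0.72). Without background correction it was -0.46.

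RPL6, of the large subunit, had 29874 with DMSO, 22572 at 5 µM and 22945 at 20 µM on its brighter probe, and a ratio to DMSO of -0.35 at 20 µM (1.28-fold lower) and -0.12 at 5 µM. Its other probe read 27900 with DMSO, 21598 at 5 µM and 22596 at 20 µM, with ratios of -0.28 and -0.11. Both probes of RPL6 were thus lower on the 20 µM array than on the DMSO array by similar amounts. With the mean of both probes RPL6 no longer reached 0.32 in size. Nor did its brighter probe under median scaling (-0.31) or from the authors' deposited values (-0.21). Under median scaling RPL22 reached that size instead, at -0.32 at 20 µM against DMSO.

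RPL22, an RNA-binding protein that the ribosome can do without and that T-cell development needs, read 3293 with DMSO, 2957 at 5 µM and 2508 at 20 µM. After normalization its ratio to DMSO was -0.22 at 20 µM and 0.20 at 5 µM, and the 20 µM array stood -0.41 from the 5 µM array (1.33-fold lower). Its value at 5 µM depended on the scaling, being -0.032 under median scaling and 0.13 from the authors' deposited values. RPL23A, at the exit of the peptide tunnel, had a ratio of -0.21 at 20 µM and 0.012 at 5 µM, and RPL34 had -0.20 and 0.11. RPL35, also at the tunnel exit, read 18400.4 with DMSO, 12490.3 at 5 µM and 14092 at 20 µM, with ratios of -0.21 at 20 µM and -0.14 at 5 µM.

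In the small subunit, RPS2, a protein near the mRNA entry channel, read 37171 with DMSO, 28862 at 5 µM and 31979 at 20 µM, a ratio of -0.21 at 20 µM and -0.023 at 5 µM. RPS21 had a ratio of -0.11 at 20 µM and -0.050 at 5 µM. RPS19, the gene most often mutated in Diamond-Blackfan anaemia, read 112 with DMSO, 102 at 5 µM and 96.1 at 20 µM, close to the threshold. Its ratio at 20 µM was -0.20 with the offset of 50 and -0.63 from the authors' deposited values, and its other probe had -0.026. RPS20 likewise stood at 102, 87.7 and 90.8 in dose order, with -0.13 at 20 µM and -0.54 from the authors' deposited values. At 5 µM it had -0.16, and -0.77 from the authors' deposited values, past 1.5-fold. For probes this close to the threshold the size of a ratio depends on what is taken off or added before the logarithm.

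RPL36 was the highest member of the large subunit at 20 µM and RPS24 the highest of the small subunit. RPL36, a eukaryote-specific protein of the large subunit, read 4834 with DMSO, 4573 at 5 µM and 5101 at 20 µM, which gave ratios to DMSO of 0.30 at 20 µM (1.23-fold higher) and 0.29 at 5 µM. RPS24, another Diamond-Blackfan anaemia gene, read 16161 with DMSO, 14652 at 5 µM and 17127 at 20 µM, with ratios of 0.27 at 20 µM and 0.25 at 5 µM. Both genes were brightest on the 20 µM array before normalization. At 5 µM their raw signal was below DMSO, and their ratio was positive after quantile normalization, which rescales the bright probes of that array. Under median scaling the 5 µM ratio was 0.044 for RPL36 and -0.018 for RPS24. From the authors' deposited values it was 0.21 for RPL36 and 0.15 for RPS24.

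Smaller positive ratios followed. RPL29 had 0.21 at 20 µM and 0.098 at 5 µM, RPL12, at the base of the stalk, had 0.20 at both doses, and RPL37A had 0.20 at both doses. In the small subunit RPS23, a protein of the decoding centre, had 0.21 at 20 µM and 0.098 at 5 µM. RPS27 had 0.13 and 0.055, RPS28 had 0.13 and 0.11, and RPS15A had 0.12 and 0.080 at the same doses. All of these stayed under 0.32. The sign at 5 µM depended on the normalization for all but RPL37A, which had 0.056 under median scaling. That scaling gave -0.19 for RPL29, -0.060 for RPL12, -0.070 for RPS23, -0.18 for RPS27, -0.16 for RPS28 and -0.11 for RPS15A at 5 µM.

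Some members differed more between the 2 doses than from DMSO at 20 µM. RPL14, of the large subunit, read 6927 with DMSO, 4053 at 5 µM and 6028 at 20 µM. Its ratio was -0.41 at 5 µM against DMSO (1.32-fold lower), -0.0052 at 20 µM against DMSO and 0.40 at 20 µM against 5 µM (1.32-fold higher). The 5 µM array alone was low for RPL14, and its single probe gives no second reading. Under median scaling the 5 µM ratio was -0.65, past 1.5-fold.

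RPL5 and RPL11 carry the 5S rRNA into the large subunit and, when free of it, bind MDM2, the main inhibitor of p53. RPL5 read 12047.5 with DMSO, 7944 at 5 µM and 11276 at 20 µM, with ratios of -0.21 at 5 µM against DMSO, 0.083 at 20 µM against DMSO and 0.30 at 20 µM against 5 µM. RPL11 read 20302, 15823 and 19207 in dose order, with a ratio of 0 at 5 µM and 0.065 at 20 µM. The 5 µM array was thus low for RPL5 after normalization but not for RPL11, within differences that no replicate can check. A ratio of exactly 0 arises where quantile normalization gives a probe the same rank on both arrays, as for 4 members at 5 µM against DMSO.

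The stalk proteins and RPS6 showed small ratios with the main quantile normalization. RPLP1 had -0.087 at 20 µM and 0 at 5 µM. RPLP2, its partner in the stalk, read 15636 with DMSO, 10367 at 5 µM and 13055 at 20 µM, with ratios of -0.10 at 20 µM and -0.21 at 5 µM. RPS6, the small subunit protein that S6 kinases phosphorylate downstream of mTOR, read 15115, 10954 and 14402 in dose order, with 0.10 at 20 µM and -0.051 at 5 µM. These readings are of RNA and say nothing of the phosphorylation of RPS6.

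Other members are named for their place among the extremes of the remaining comparisons. At 5 µM against DMSO, RPL7A had 0.21, RPS3, which helps to admit the mRNA, had 0.18, and RPS3A had 0.16, while RPS15 had -0.12. At 20 µM against 5 µM, RPL34 had -0.31, RPL28 had -0.31 and RPS27L had -0.19, while RPS6 had 0.15 and RPS15 had 0.14. Each stayed under 0.32 in size with the main normalization. Under median scaling the ratio at 5 µM against DMSO was -0.059 for RPL7A, 0.0006 for RPS3, -0.090 for RPS3A and -0.41 for RPS15. At 20 µM against 5 µM that scaling gave 0.34 for RPS6 and 0.33 for RPS15.

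The paralogs were compared with their parents without setting 1 probe's brightness against the other's. RPL10L, an autosomal copy of the X-linked RPL10 known from testis, read 3546 with DMSO, 2741 at 5 µM and 3778 at 20 µM, and had 0.29 at 20 µM against DMSO, -0.018 at 5 µM against DMSO and 0.31 at 20 µM against 5 µM. RPL10 itself read 25125, 21215 and 27278 in dose order on its brighter probe and had 0.14 at 20 µM and 0.046 at 5 µM. RPL10L and this probe of RPL10 were brightest on the 20 µM array. The other probe of RPL10 was brightest with DMSO, at 16471, 11529 and 16165 in dose order. Whether the RPL10L probe binds RPL10 transcripts was not tested.

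RPL3L, a paralog used in striated muscle, stayed near the threshold with 90.3, 85.1 and 86.3 in dose order and a ratio of -0.018 at 20 µM, while RPL3 read 32362, 25991 and 29455 and had -0.12. RPL39 had 0.18 at both doses, though -0.079 at 5 µM under median scaling, and RPL39L had 0.024 at 20 µM at its threshold level. From the authors' deposited values RPL39L had 0.74 at 20 µM against 5 µM, past 1.5-fold, with values of only 2.5 and 1.5. RPS27L, a p53 target in human cells, read 856, 741 and 722 in dose order, with -0.067 at 20 µM and 0.12 at 5 µM, while its parent RPS27 had 0.13 and 0.055. Under median scaling RPS27L had -0.088 at 5 µM, so its sign at that dose depends on the normalization.

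The 12 genes with 2 probes show how far readings of the same transcript differed on the same arrays. At 20 µM against DMSO the probes of RPL41, which encodes a very short basic peptide, had 0.19 and -0.17, the widest gap among the 12. The brighter probe of RPL41 read 1037, 842 and 1046 in dose order and the other 182, 148 and 151, so the 2 probes placed the 20 µM array on opposite sides of DMSO. The probes of RPS16 had 0.087 and -0.071, those of RPL27A 0.043 and -0.12, those of RPS9 0.081 and -0.074, and those of RPS28 0.13 and -0.026. The 2 probes differed in sign for 5 of 12 genes at 20 µM against DMSO, for 9 at 5 µM against DMSO and for 4 at 20 µM against 5 µM. At 5 µM the 2 probes thus left the sign of the ratio unsettled for most of the 12 genes. There RPL10A had -0.080 and 0.20, RPL10 0.046 and -0.13, RPL31 0.10 and -0.015, and RPS19 -0.033 and 0.0040.

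**Figure D4:**
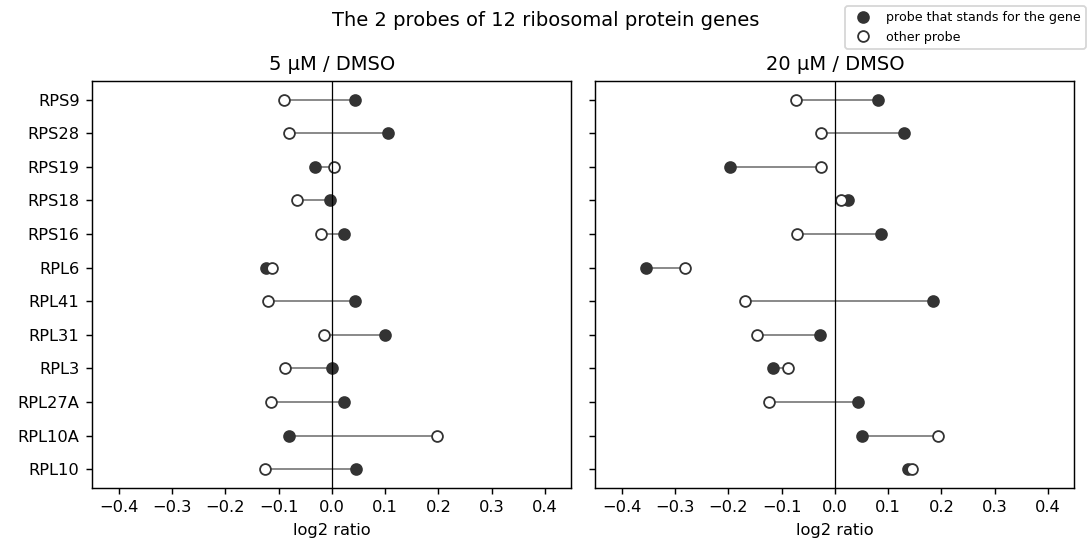
Log2 ratio to DMSO of the 2 probes of each of 12 ribosomal protein genes, at 5 µM (left) and 20 µM (right); filled points are the probe that stands for the gene and open points its other probe. Only RPL6 has both probes below -0.2 at 20 µM, and the probes of RPL41 lie on opposite sides of 0.

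From the differences between such probes, the SD of a single ratio was 0.11 at 20 µM, 0.098 at 5 µM and 0.076 at 20 µM against 5 µM over the 12 members with 2 probes. Over all genes with 2 probes, 2007 pairs at 20 µM against DMSO, it was 0.15, and it was 0.11 at 5 µM and 0.12 at 20 µM against 5 µM. Over the 11 genes with both probes bright it was 0.075, 0.12 and 0.079 in the same order. These 11 were picked by level alone and include members such as RPS16, so they are not a set apart from the members. This spread covers differences between probes on the same arrays. What an array does to both probes alike cancels in it, and the spread between cultures is not in it. The limit taken was 2 such SDs over all genes, 0.29 at 20 µM against DMSO. From the bright pairs it would be 0.15, and members were not counted at that limit. More members pass it than pass 0.29. Among the bright ones, RPS24 (0.27), RPL29 (0.21), RPL12 (0.20), RPL37A (0.20) and RPL39 (0.18) lie above it. RPL35 (-0.21) and RPS2 (-0.21) lie as far below 0, and these are examples only. Against the limit over all genes, 3 of 66 members stood apart at 20 µM against DMSO, or 4.55%, against 15.5% of all genes and 34.5% of the other bright genes. They were RPS26, RPL6 and RPL36.

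At 5 µM against DMSO the number was also 3 of 66, namely RPL14, RPL36 and RPS24, against 9.84% of all genes and 18.1% of the other bright genes. At 20 µM against 5 µM it was 8 of 66, or 12.1%, against 14.2% and 29.4%. These were RPL14, RPL10L, RPL5 and RPL9 above and RPL22, RPS26, RPL34 and RPL28 below, RPL9 being named after its value of 0.25 was seen.

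Members with and without a TOP tract at an annotated start were read side by side. At 20 µM against DMSO the 39 with a tract had a median log2 ratio of 0.065 (SD 0.14) and the 16 without had -0.0034 (SD 0.20). At 5 µM against DMSO the medians were 0.046 and -0.029, and at 20 µM against 5 µM 0.021 and 0.0067. RPS26 and RPL6, the lowest members at 20 µM, are among the 16 without a tract at a listed start, while RPL36 and RPS24 hold the tracts printed above. Other members go the other way. RPL22 (-0.22), RPL35 (-0.21) and RPL34 (-0.20), also low at 20 µM, hold a tract, and RPL10L, at 0.29, holds none. Nothing follows from these letters about a regulator.

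The processing moved the set more at 5 µM than at 20 µM. When the arrays were scaled to a common median, the members' median at 5 µM against DMSO was -0.20 and that of the other bright genes -0.24. Of the 66 members, 60 then had a 5 µM ratio below 0, against 163 of 177 other bright genes and 8743 of 16075 genes measured. At 20 µM against DMSO the same scaling gave medians of -0.026 for the members and -0.13 for the other bright genes. From the authors' deposited values, the members' median was 0.066 at 20 µM against DMSO and 0.11 at 20 µM against 5 µM. At 5 µM against DMSO it was -0.045, where the main quantile normalization gave 0.0072. When the quantile normalization was fitted on the probes outside the set, so that the members could not shape it, their medians were 0.025 at 20 µM and 0.023 at 5 µM. In each of these settings the members' median lay above that of the other bright genes. With probe means it lay below at 5 µM against DMSO, 0 against 0.0081. With the local background column it lay below at 20 µM against DMSO, 0.019 against 0.076.

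**Figure D5:**
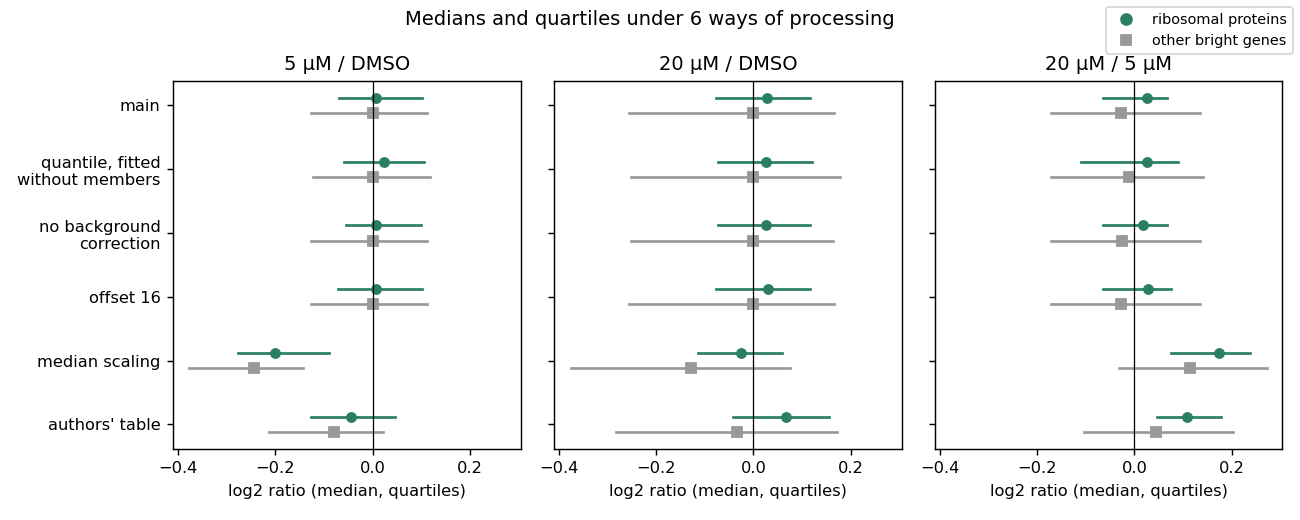
Median (point) and quartiles (line) of the log2 ratio of the ribosomal protein genes (green) and of the other bright genes (grey) under 6 ways of processing, for 5 µM over DMSO, 20 µM over DMSO and 20 µM over 5 µM. Median scaling shifts both sets to negative values at 5 µM, with medians of -0.20 and -0.24, and the green lines are the shorter ones in every panel.

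Genes near the ribosome that the choice by symbol leaves out were read the same way. Of 6 ribosomal proteins and close paralogs with other symbols, 5 had a probe, with a median of 0.22 at 20 µM and 0.027 at 5 µM. Under median scaling the medians were 0.081 and -0.23, and from the authors' deposited values 0.18 and -0.082, so the sign at 5 µM turned. RPL36AL, a copy of the RPL36A gene, read 1243 with DMSO, 1578 at 5 µM and 1563 at 20 µM, with ratios of 0.51 at 20 µM and 0.71 at 5 µM. Its raw signal was higher on both treated arrays than with DMSO, which held for no member at 5 µM. RPL26L1 had -0.42 at 20 µM, RPL7L1 had 0.24, and FAU, whose product is cleaved into a ubiquitin-like protein and a small subunit protein, had 0.072.

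Of 18 other genes known for TOP mRNAs, chiefly translation factors, 17 had a probe, with a median of 0.019 at 20 µM and 0.044 at 5 µM. Both medians turned with the scaling, to -0.096 and -0.25 under median scaling and to -0.013 and -0.084 from the authors' deposited values. At 20 µM, 1 of 17 was 0.32 or more above DMSO, EIF4A2 at 0.52, against 5.85% of all genes, and 1 as far below it, NAP1L1 at -0.57, against 7.32%. The next on either side were VIM at 0.31 and NPM1 at -0.29.

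Genes that build ribosomes and the proteins of the mitochondrial ribosome were read beside the members. Of 25 ribosome biogenesis genes, 24 were measured. At 20 µM, 6 of them stood 0.32 or more above DMSO, against 5.85% of all genes, and 0 as far below it, against 7.32%, with a median of 0.12. RIOK2, a kinase of late small subunit maturation, read 354 with DMSO, 373 at 5 µM and 515 at 20 µM, a ratio of 0.74 at 20 µM, and NOP2, an rRNA methyltransferase, had 0.69. UTP20 and UBTF were lowest, at -0.15 and -0.10. Under median scaling the list's median was 0.025 at 20 µM and turned to -0.046 at 5 µM, where it was 0.13 with quantile normalization.

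The 75 mitochondrial ribosomal protein genes had a median of -0.19 at 20 µM and -0.039 at 5 µM. At 20 µM, 17 of them stood 0.32 or more below DMSO, against 7.32% of all genes, and 2 as far above it, against 5.85%. A ratio below 0 was found for 55 of 75, against 7570 of 16062 genes measured. MRPL16 read 1146 with DMSO, 842 at 5 µM and 576 at 20 µM, a ratio of -0.85, and MRPS34 had -0.65. MRPL42 and MRPS30 were highest, at 0.51 and 0.39. The list's median at 20 µM ran between -0.30 and -0.16 over the alternatives without the local background column, so it stayed below 0 there. At 5 µM it was -0.25 under median scaling, where 24 of 75 stood 0.32 or more below DMSO, against 9.39% of all genes. The other bright genes had a median of -0.24 under that scaling, with 60 of 177 as far below DMSO, so the low values were not particular to this list.

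All 10 colon epithelial markers with a probe were above the threshold on each array, though CDX2 and CEACAM5 only 1.12 and 1.17 times in DMSO. Of 13 markers of fibroblasts, blood, immune and endothelial cells, 9 were above it, of which LYZ alone exceeded 10 times the threshold, and COL1A1, COL1A2, PTPRC and PECAM1 were below it on all 3 arrays. The summed signal of the epithelial markers was 77123 with DMSO, 59676 at 5 µM and 60908 at 20 µM, and that of the others 17135, 13333 and 13434. With DMSO, KRT18 alone gave 56135 of the epithelial sum and LYZ alone 15819 of the other, so the sums mostly follow these genes. The median signal over all gene probes was 117 with DMSO, 107 at 5 µM and 110.3 at 20 µM, so most of the array lay close to its threshold, unlike the ribosomal protein probes.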

How the data were processed

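The deposited scanner files hold, per the file headers, the median intensity of each spot at the red wavelength, read at 3 gains that the headers join by straight lines, and a local background. The deposited value table holds linear intensities. Set against the same arrays, these lie on 1 straight line per array, so the authors took off about the blank level and scaled. The software was not given in the sources used here. RNA was isolated and amplified with kits, per the labels' protocols.

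Spot medians were corrected with normexp (offset 50, fitted on the spot signal alone over all spots), converted to log2, and the 24460 gene probes were quantile normalized, in limma 3.58.1 under R 4.3.3. Tables were made in Python 3.11.15 with pandas 2.3.3 and numpy 2.4.6, and figures with matplotlib 3.10.9. A log2 ratio is thus of the corrected signal plus the offset, which understates differences of dim probes. The local background rises with the spot signal (Spearman correlation across probes between 0.962 and 0.967) and was used only as an alternative. A probe was detected if its spot was not marked bad and exceeded the mean plus 2 SD of 480 blank and negative spots, trimmed by 5% at each end. The probe detected on most arrays, then the brightest on average, stood for a gene, and ratios were counted for genes detected on both arrays. The steps were checked on simulated data.

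Gene names came from the platform annotation, which gives 1 symbol for 21707 probes, none for 2753 and several for 0. Of these, 21675 matched RefSeq (GRCh38.p14), also the source of the start-site windows. The named members are the 5 highest and 5 lowest of each subunit at 20 µM against DMSO, the 3 highest and 3 lowest in each other comparison, the stalk, 5S, RPS6, RPS19 and paralog genes, and those whose probes differ in sign or by over 0.3. In the lists beside them, the 2 highest and 2 lowest at 20 µM are named. Members, lists and fold limits (5 to 4, 1.5 and 2) were chosen with earlier results of these data known.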

Additional observations from a re-analysis of the deposited data

How the results depend on the processing

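No paired analysis was possible because each group has 1 array and the groups share only replicate number 1. Leaving out a replicate was not possible for the same reason. No member reached a signal of 60000, and every member was detected, so leaving bright probes out and dropping the detection filter left the members' values as they were. Every member probe on its own was added after seeing the data. Outside the local background column, the median of all members lay between -0.026 and 0.066 at 20 µM against DMSO, between -0.20 and 0.023 at 5 µM against DMSO and between 0.015 and 0.17 at 20 µM against 5 µM. Under median scaling the medians of all, large and small subunit members were -0.20, -0.19 and -0.20 at 5 µM against DMSO and 0.17, 0.16 and 0.18 at 20 µM against 5 µM. That scaling put 10 members 0.32 or more (log2) below DMSO at 5 µM, against 9.39% of all genes, and 6 as far above and 0 as far below at 20 µM against 5 µM, against 6.20% and 2.41%. From the authors' values, 1 member was as far above DMSO at 20 µM, 4 below at 5 µM, and 4 above and 4 below at 20 µM against 5 µM, against 15.8%, 12.6%, 14.6% and 9.70% of all genes. Probe means left 1 member as far below at 20 µM against DMSO (6.97% of all genes), and omitting background correction left 1 at 20 µM against 5 µM (2.56%). The offset of 16 gave 2 below at 5 µM (3.74%) and 4 below at 20 µM against 5 µM (5.88%). With the local background column, 25 members were as far above and 22 as far below at 20 µM against DMSO, 21 and 18 at 5 µM against DMSO, and 22 and 19 at 20 µM against 5 µM, while the shares of all genes lay between 8.02% and 9.69% over these 3 comparisons. The large and small subunit medians were then 0.40 and -0.30 at 20 µM against DMSO and 0.25 and -0.20 at 20 µM against 5 µM. RPS26 turned to 0.22 at 20 µM against DMSO and 0.10 at 20 µM against 5 µM, and RPL22 to 1.91 in the last. The members' SD at 20 µM was 2.14 with that column, against 0.15 without it. The 5 genes under 2 times the threshold limit what can be said of them.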

Other observations

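Probes annotated as ribosomal protein pseudogenes were nearly all detected. There were 50 such symbols on the array, and 50 were above the threshold with DMSO, 48 at 5 µM and 49 at 20 µM. Their summed signal was 410287 with DMSO, 336252 at 5 µM and 393594 at 20 µM. The 49 measured on both arrays had a median log2 ratio of 0.10 at 20 µM against DMSO, and 48 had 0.031 at 5 µM against DMSO. RPL12P2, a copy named for RPL12, read 8657 with DMSO, 6971 at 5 µM and 9361 at 20 µM, with a ratio of 0.31 at 20 µM. RPL7P17 was highest at 0.47, and RPL23AP82 and RPL35P1 were lowest at -0.25 and -0.18. Under median scaling the pseudogene median was 0.0067 at 20 µM and -0.18 at 5 µM. Which transcripts these probes bind was not tested.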
